A study of Mus musculus with 4 samples.

Results

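Muscle breaks down its own proteins largely through the ubiquitin-proteasome system, in which a chain of enzymes attaches ubiquitin to a protein and the proteasome then degrades it. The last enzyme of the chain, the E3 ligase, chooses the substrate. Atrogin-1 (Fbxo32) and MuRF1 (Trim63) are the ligases best known from wasting skeletal muscle, and both are also made in cardiomyocytes, where MuRF1 and its relatives MuRF2 (Trim55) and MuRF3 (Trim54) sit at the sarcomere. FoxO transcription factors are held out of the nucleus when insulin and growth factor signals activate Akt, and when that signal falls they enter the nucleus and drive Fbxo32, Trim63 and genes of autophagy.

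The mRNA levels of 10 genes of this system, chosen by symbol, were read from the 22322 genes measured in isolated mouse cardiomyocytes. They were the ligases Fbxo32, Trim63, Trim54, Trim55, Mdm2, Stub1 and Nedd4 and the transcription factors Foxo1, Foxo3 and Foxo4. There were 2 libraries from mice with transverse aortic constriction (TAC), in which a narrowed aorta loads the left ventricle with pressure, and 2 from sham-operated mice. Per the study's methods, male mice were operated at 2 months of age, cells were released from the heart by Langendorff perfusion 14 weeks after surgery, and the RNA of a library came from a part of the cells of a single heart. No transgene or deletion is named for these mice in the labels or methods (the strain is not stated there). Nothing in the labels says which hearts were processed together. The comparison asks how the RNA of these ligases and factors stood in heart muscle cells at the stage of heart failure.

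The libraries held 24237777 to 32118323 counts, and each of the 10 genes had between 407 and 13936 counts in every library (common biological coefficient of variation 10.5%). The 10 summed markers of cardiomyocytes stood at 73084 to 81640 CPM (counts scaled to a common library size) and overlapped between the groups. Markers of other heart cells were present at low levels, and all 10 endothelial, all 10 fibroblast, all 10 macrophage and all 10 mural markers had a log2 fold change below 0 in TAC. Of all genes 49.1% lay above 0. At an adjusted p under 0.05 (edgeR, below) 3 endothelial, 2 fibroblast, 2 mural and 0 macrophage markers were called lower. Sums over all 10 markers were 457 to 564 CPM in sham and 270 to 377 in TAC for endothelial cells, 178 to 251 and 106 to 143 for fibroblasts, and 765 to 803 and 443 to 584 for mural cells. For macrophages they were 61.7 to 120 CPM in sham and 32.9 to 60.4 in TAC, with TAC 2 (60.4) just under sham 2 (61.7). None of these defining markers was without counts. Whether there were fewer such cells or less RNA per cell in TAC cannot be told apart in bulk RNA. TAC 1 stood apart from the rest, with 47.4% of its counts on the 13 protein-coding mitochondrial genes against 39.8% to 40.9% elsewhere, and calls that were lost without it are named as such.

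Trim63 and Mdm2 had a FoxO binding motif in the promoter, and the stretches that hold it are shown because the FoxO factors are themselves among the genes described. For Fbxo32, Trim55 and Foxo4 no promoter window was at hand, so they were not searched. A window from 250 bases before to 50 bases after the transcription start was at hand for 7 of the 10 genes (RefSeq, GRCm38.p6). It was searched on both strands for GTAAACA, the high-affinity FoxO motif, and for CAAAACA, the core of the insulin response element. Both stretches are written 5′ to 3′ on the strand of the gene, with the motif, or its reverse complement TGTTTAC, in capitals.
Trim63, chr4:134314915-134314943, plus strand: cagtctgttctTGTTTACgacccccacgg
Mdm2, chr10:117710894-117710922, minus strand: ggtttcgagcgGTAAACAcaaccgcgcgg
The match began at position -194 from the start in Trim63 and at -153 in Mdm2. Among all 32851 windows of this length 3.65% held GTAAACA on either strand. CAAAACA was found in none of the windows of these genes and in 6.28% of all windows. A match describes the letters in the window only.

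No member of the group changed past the threshold. Of the 12499 genes tested by edgeR's quasi-likelihood test, 5.01% were called at a Benjamini-Hochberg adjusted p under 0.05, while none of the 10 members was called. At an unadjusted p under 0.05 there were 4 members, all higher in TAC (Trim63, Trim54, Trim55 and Stub1), against 27.5% of all genes in either direction and 13.5% of all genes with higher values. DESeq2 called 2 of the 10, Trim63 and Trim54, where it called 7.92% of all genes. Both TAC libraries lay above both sham libraries for 5 members and below for 1, against 29.8% and 30.3% of all genes, so that the groups did not overlap for 6 of 10 members and 60.1% of all genes. The median log2 fold change of the members was 0.04, and that of all genes tested was -0.01. None of the members passed a fold change of 2 with an unadjusted p under 0.05 and a mean FPKM over 2, a cut-off the study applied, which 0.824% of all genes passed.

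All muscle RING-finger ligases stood higher in TAC than in sham in counts scaled by TMM, which sets the bulk of genes equal between libraries. Trim63 (ENSMUSG00000028834, chromosome 4, 134315120 to 134329629, plus strand, GRCm38) encodes MuRF1, which ubiquitinates myosin heavy chain and other thick filament proteins. Its level was 122 CPM in sham 1 and 131 in sham 2, against 201 in TAC 1 and 155 in TAC 2. Both TAC values lay above both sham values, and TAC 1 was by far the highest. The mean was 127 ± 6.36 CPM in sham and 178 ± 32.8 in TAC (SD, n = 2 each). The log2 fold change was 0.49 ± 0.12 (SE), or 1.41-fold with a 95% interval of 1.15 to 1.71, with an edgeR adjusted p of 0.0619. It was larger than that of 95.5% of all tested genes. This value rested on TAC 1. Without TAC 1 it was 0.29 with an edgeR adjusted p of 0.179, without TAC 2 it was 0.67 (0.00406), without sham 2 it was 0.55 (0.0381) and without sham 1 it was 0.44 (0.073). For scale, 10.3% of all genes were called without TAC 2 and 5.8% without sham 2. DESeq2 gave an adjusted p of 0.00253 for the comparison of all 4 libraries, and edgeR without its filter on low counts one of 0.00438, with 10.5% of all genes called.

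Trim54 (ENSMUSG00000062077, chromosome 5, 31116712 to 31137630, plus strand) encodes MuRF3, which binds microtubules and the Z-disc. It was at 141 CPM in sham 1 and 158 in sham 2, against 196 in TAC 1 and 174 in TAC 2, again with no overlap between the groups. Its log2 fold change was 0.31 ± 0.09 (SE), a ratio of 1.24 with a 95% interval of 1.07 to 1.44, and the edgeR adjusted p was 0.0868. It fell to 0.22 without TAC 1 (adjusted p 0.314) and to 0.23 without sham 1 (0.314), and without TAC 2 it was 0.40 (0.0428). DESeq2 gave an adjusted p of 0.0422.

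Trim55 (ENSMUSG00000060913, chromosome 3, 19644474 to 19692421, plus strand), which encodes MuRF2, a partner of titin, showed the narrowest spread of the family. It was at 55.1 and 56.6 CPM in the sham libraries and at 63.2 and 64.8 in the TAC libraries. The log2 fold change was 0.20 ± 0.07 (SE), 1.15-fold, with an edgeR adjusted p of 0.142, and it stayed between 0.18 and 0.22 when any library was left out. The scaling decided how large these values were. When libraries were scaled by total counts, as the study did, the median of all genes moved to -0.20, and the log2 fold changes were 0.29 for Trim63, 0.12 for Trim54 and 0.01 for Trim55. Relative to that median they were 0.49, 0.32 and 0.21, close to the values above.

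**Figure D1:**
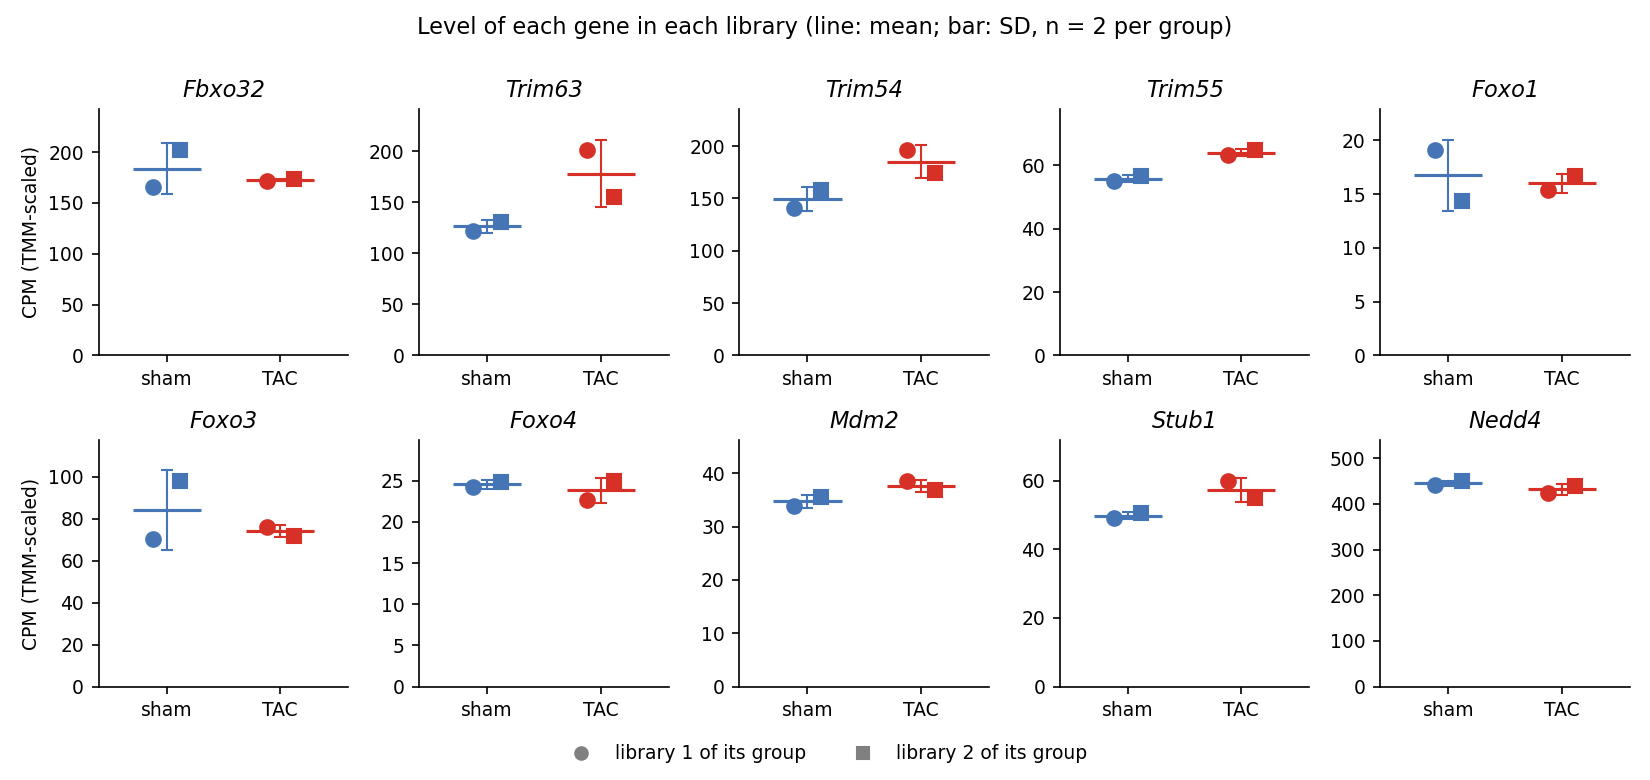
Level of each of the 10 genes in each library, in CPM with TMM-scaled library sizes; points are libraries (circle, library 1 of its group; square, library 2), lines are group means and bars the SD of n = 2. The TAC points lie above the sham points for Trim63, Trim54, Trim55, Stub1 and Mdm2, below for Nedd4, and overlap for Fbxo32 and the FoxO genes.

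Fbxo32 (ENSMUSG00000022358, chromosome 15, 58175879 to 58214932, minus strand) encodes atrogin-1, the F-box subunit that brings substrates such as calcineurin to an SCF ligase. Its level was 166 CPM in sham 1 and 202 in sham 2, against 172 in TAC 1 and 173 in TAC 2. The TAC values lay between the sham values, nearer to sham 1. The log2 fold change was -0.09 ± 0.10 (SE) with a 95% interval of -0.32 to 0.14 and an edgeR adjusted p of 0.589, so an increase above 1.10-fold lay outside the interval. Its sign turned on sham 2: without that library the value was 0.06, and without sham 1 it was -0.23.

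The ratio of Trim63 to Fbxo32 counts within a library does not depend on how libraries are scaled. It was 0.736 in sham 1 and 0.649 in sham 2, against 1.17 in TAC 1 and 0.893 in TAC 2. Both TAC libraries stood above both sham libraries, where 60.1% of single genes had no overlap between the groups. The ratio of Trim54 to Fbxo32 was 0.851 and 0.780 in the sham libraries and 1.14 and 1.01 in the TAC libraries. Within the MuRF family the balance differed less. Trim63 over Trim54 was 0.865 and 0.831 in sham and 1.03 and 0.887 in TAC, and Trim63 over Trim55 was 2.21 and 2.32 in sham and 3.18 and 2.39 in TAC, so that TAC 2 lay close to the sham libraries in both. With 2 libraries per group the exact permutation test, two-sided, cannot give a p below 0.333, which is what each of these ratios gave.

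**Figure D2:**
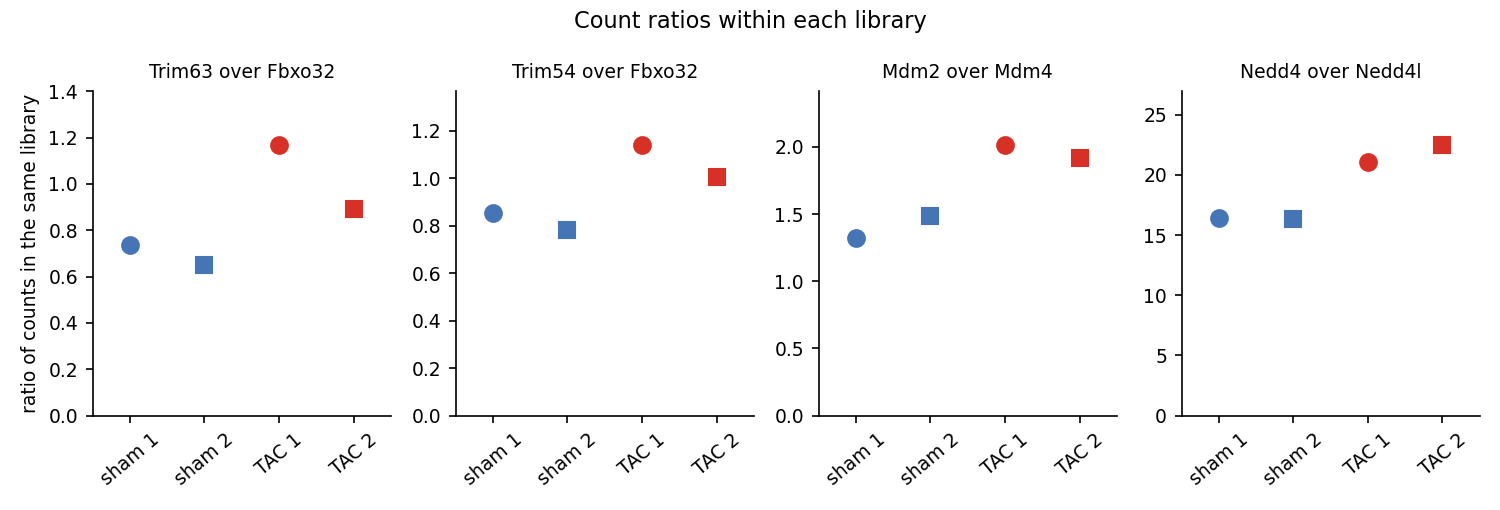
Ratio of the counts of a pair of genes inside each library, with each axis starting at 0; blue points are sham and red points TAC libraries. In each of the 4 ratios both TAC libraries lie above both sham libraries, for Trim63 over Fbxo32 at 1.17 and 0.893 against 0.736 and 0.649. Among single genes 60.1% did not overlap, and no such share was taken over other gene pairs.

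Foxo1, Foxo3 and Foxo4 did not separate the groups. Foxo3 (ENSMUSG00000048756, chromosome 10, 42181841 to 42276755, minus strand), the factor best known for switching on atrogin-1, was at 70.6 CPM in sham 1 and 97.9 in sham 2, against 76.1 in TAC 1 and 72.1 in TAC 2. Sham 2 was the highest and sham 1 the lowest of the 4. TAC differed from sham by a log2 fold change of -0.18 ± 0.14 (SE) with a 95% interval of -0.52 to 0.15 and an edgeR adjusted p of 0.425. Without sham 1 it was -0.40 and passed the threshold (adjusted p 0.0455, with 4.55% of all genes called), and without sham 2 it was 0.07 (0.739), so the sham libraries decided its sign.

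Foxo1 (ENSMUSG00000044167, chromosome 3, 52268336 to 52353221, plus strand), which acts on metabolic and cell cycle genes as well as on the ligases, was at 19.1 CPM in sham 1 and 14.4 in sham 2, against 15.4 in TAC 1 and 16.6 in TAC 2. It was the least abundant member. Its log2 fold change was -0.07 ± 0.15 (SE), with an edgeR adjusted p of 0.805, and was 0.15 without sham 1. Foxo4 (ENSMUSG00000042903, chromosome X, 101254528 to 101260873, plus strand), the family member on the X chromosome, was at 24.2 and 24.9 CPM in sham and at 22.7 and 24.9 in TAC. Its log2 fold change was -0.04 ± 0.10 (SE), with an edgeR adjusted p of 0.80. Of the summed FPKM of these FoxO genes, Foxo3 held 51.3% to 59.2% in sham and 51.8% to 55.4% in TAC, Foxo4 held 33.9% to 38.7% over the 4 libraries, and Foxo1 held 6.86% to 10.9%. None of these shares separated the groups. Foxo6, not a member but in the list of FoxO regulators below, was low, at 3.29 and 1.95 CPM in sham. In TAC it was at 0.825 and 1.35 CPM, without overlap, as for 60.1% of all genes. Its log2 fold change was -1.28, and it was not called (edgeR adjusted p 0.0919). FoxO activity is set mainly by phosphorylation and by the place of the protein in the cell, which RNA levels do not show.

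Stub1, Mdm2 and Nedd4 are ligases of other classes that also act in heart muscle. Stub1 (ENSMUSG00000039615, chromosome 17, 25830505 to 25833404, minus strand) encodes CHIP, which ubiquitinates misfolded clients of Hsp70 and Hsp90. Its level was 49.1 and 50.5 CPM in the sham libraries and 59.8 and 54.9 in the TAC libraries, with no overlap. The log2 fold change was 0.20 ± 0.08 (SE), 1.15-fold, with an edgeR adjusted p of 0.159. Under total counts it was 0.01. The gene overlaps Jmjd8 on the opposite strand by 1339 bases, no source used here says whether reads were counted by strand, and its deposited counts were not whole. Jmjd8 was at 22.3 and 21.5 CPM in sham and at 24.4 and 27.5 in TAC, also without overlap, with a log2 fold change of 0.24 ± 0.10 (SE) and an edgeR adjusted p of 0.174. The part of its reads in the value of Stub1 was not tested.

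Mdm2 (ENSMUSG00000020184, chromosome 10, 117688875 to 117710758, minus strand) encodes the ligase that degrades p53 and that also ubiquitinates FoxO factors. It was at 33.8 and 35.6 CPM in sham and at 38.5 and 36.9 in TAC. This gave a log2 fold change of 0.12 ± 0.08 (SE) with an edgeR adjusted p of 0.383, and the value was -0.07 under total counts. Its relative Mdm4, which inhibits p53 without ligase activity of its own, was at 25.6 and 24.0 CPM in sham and 19.1 and 19.2 in TAC (log2 fold change -0.37, edgeR adjusted p 0.066). Mdm2 over Mdm4 within a library was 1.32 and 1.49 in sham and 2.02 and 1.92 in TAC.

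Nedd4 (ENSMUSG00000032216, chromosome 9, 72662346 to 72749852, plus strand) encodes a HECT ligase of membrane proteins and had the most counts of the 10 genes. It was at 440.4 and 449 CPM in sham and at 423 and 440.04 in TAC, so that TAC 2 lay just under sham 1. The log2 fold change was -0.04 ± 0.07 (SE) with a 95% interval of -0.21 to 0.13 and an edgeR adjusted p of 0.728. Nedd4l, a close relative known for ion channels, fell, from 26.9 and 27.5 CPM in sham to 20.05 and 19.5 in TAC (log2 fold change -0.46, edgeR adjusted p 0.0385). This call was not kept in every setting, as given below. The log2 fold change stayed between -0.48 and -0.43 when any library was left out. Nedd4 over Nedd4l counts was 16.4 and 16.3 in sham and 21.1 and 22.5 in TAC.

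**Figure D3:**
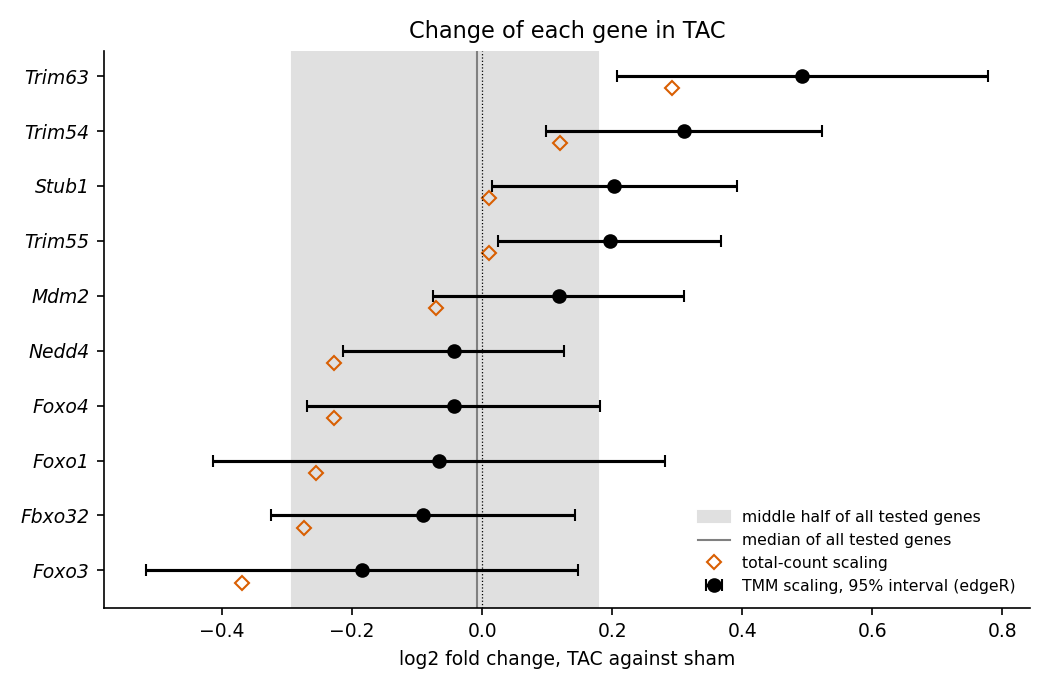
Log2 fold change of each gene, TAC against sham, with the 95% interval of edgeR under TMM scaling (black) and the value under total-count scaling (orange); the grey band holds the middle 50% of all tested genes and the grey line their median. Trim63 lies farthest from 0, at 0.49, and the intervals of Mdm2, Nedd4, Fbxo32 and the FoxO genes include 0.

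Per length, the ligases spanned a wide range of levels and their order was much the same in every library. In deposited FPKM (fragments per kilobase, scaled by library size), Trim54 was first, at 108 to 123 over the 4 libraries. Nedd4 followed at 68.9 to 93.0 and Trim63 at 71.0 to 92.6, and the ranges of these 2 genes overlapped. Stub1 was at 31.3 to 33.6, Fbxo32 at 21.4 to 30.1 and Trim55 at 21.1 to 25.2, the last 2 with overlapping ranges. Mdm2 was at 10.8 to 12.04 and Foxo3 at 9.66 to 14.9, also overlapping, Foxo4 at 6.23 to 8.55 and Foxo1 at 1.54 to 2.42. In TAC 1 Trim63 stood above Nedd4, and in the other 3 libraries below it. The length of Nedd4 implied by count, FPKM and total was not the same in every library, from 4814 to 5334 bases, a spread of 10.8%, against 4.56% for Foxo4 and 1.03% or less for the others. Trim54 held 51.1% to 54.6% of the summed FPKM of the MuRF genes, Trim63 34.5% to 39.8% and Trim55 9.09% to 11.5%. Trim63 had 34.5% and 35.1% of it in the sham libraries and 35.9% and 39.8% in the TAC libraries.

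**Figure D4:**
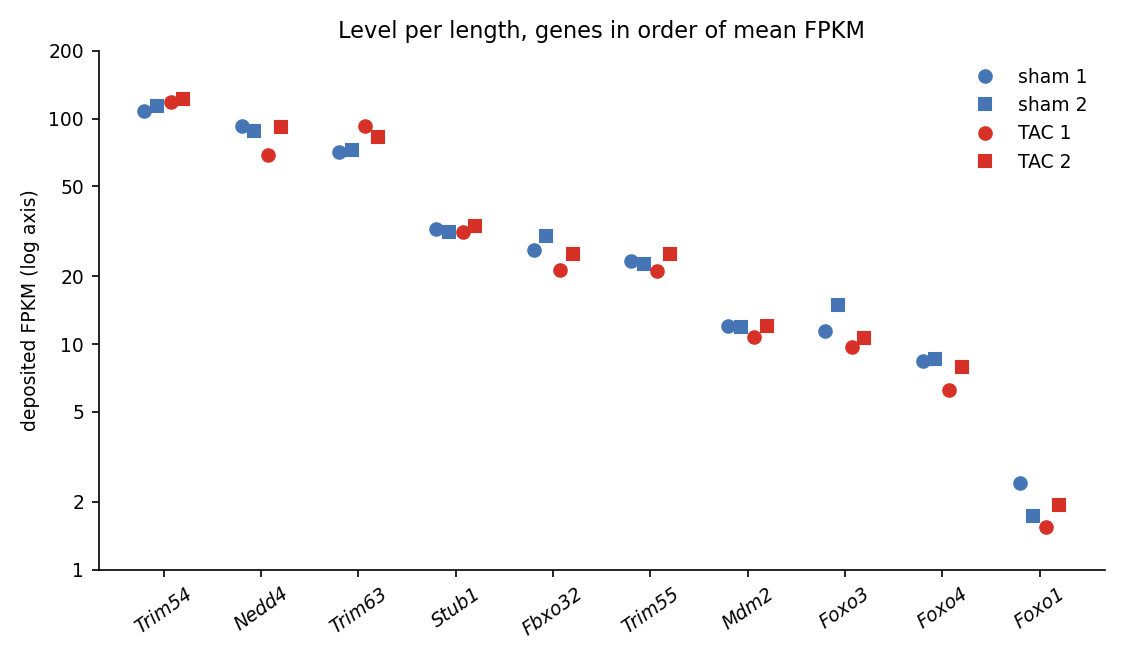
Deposited FPKM of each gene in each library on a log axis, genes in order of their mean; blue is sham, red is TAC, circles and squares are libraries 1 and 2 of a group. Trim54 is the highest in every library and Foxo1 the lowest, and Nedd4 and Trim63 overlap.

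Around these members, 162 further genes in 10 lists, chosen with earlier results of these data known, were read from the same fit. Of the 158 that were tested, 21 (13.3%) were called, 18 of them higher in TAC and 3 lower, where 2.58% of all genes were called higher and 2.43% lower. Their median log2 fold change was 0.07. Because the lists were chosen in that way, the 13.3% is a description and not a test. The split into higher and lower depended on the scaling. Under total counts 9 genes of the lists were called, 2 higher and 7 lower, and 5 of the 21 were called again. With the mitochondrial genes left out of the totals 17 were called, 9 higher and 8 lower. All 21 kept their sign in each of the 13 alternatives. Without TAC 1, 8 of the 21 were called again, and without sham 1, sham 2 or TAC 2 it was 12, 14 and 19.

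Where 2.58% of all genes were called higher and 2.43% lower, 4 of 22 reported FoxO target genes rose and none fell past the threshold. They were Ddit4, an inhibitor of mTORC1 (6.86 and 5.53 CPM in sham, 17.0 and 11.7 in TAC, log2 fold change 1.21, edgeR adjusted p 0.026), the cell cycle inhibitor Cdkn1a (15.5 and 10.9, then 27.3 and 21.3 CPM, 0.88, adjusted p 0.0443), the repressor Bcl6 (0.68, adjusted p 0.0214) and Eif4ebp1, a brake on translation (0.44, adjusted p 0.0423). Of these, Cdkn1a lost its call without TAC 1, and Eif4ebp1 without TAC 1, sham 1 or sham 2. Under total counts 3 targets were called, 1 higher (Ddit4) and 2 lower, and Bcl6, Cdkn1a and Eif4ebp1 lost their calls (adjusted p 0.107, 0.073 and 0.294). At an unadjusted p under 0.05, 7 targets were higher and 6 lower, where 13.5% and 14% of all genes were. Beside the called genes, the higher ones were Pdk4 (0.54), Sesn1 (0.34) and Insr (0.32). The lower ones were Klf2 (-0.95), Bcl2l11 (-0.68), Ccng2 (-0.58), Gadd45a (-0.55), Cited2 (-0.42) and Cdkn1b (-0.41), none of them called by edgeR with TMM. Pdk4, which restrains glucose oxidation, was at 366 and 377 CPM in sham and 452 and 629 in TAC. Klf2, which endothelial cells also make, was at 21.2 and 13.2 CPM in sham and 8.21 and 9.61 in TAC. The median of the list was 0.14. The endothelial marker sum given above was also lower in TAC, and its part in such values was not tested.

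Among 19 autophagy genes linked to FoxO, 15 had values above 0, where 49.1% of all genes did, and 1 was called, a share near the 5.01% of all genes. Ctsl, a lysosomal protease, was higher (log2 fold change 0.39, edgeR adjusted p 0.0313), and lost its call without TAC 1 or sham 2. Gabarapl1, a protein of the autophagosome membrane, was at 55.1 and 54.8 CPM in sham and 72.5 and 66.4 in TAC (0.34, adjusted p 0.0546). The median of the list was 0.15. Of 20 regulators of FoxO proteins 2 rose: the arginine methyltransferase Prmt1 (0.48, edgeR adjusted p 0.0282) and the phosphatase subunit Ppp2ca (0.35, adjusted p 0.0415). Over all genes 2.58% were called higher. Prmt1 lost its call without TAC 1 or sham 2, and Ppp2ca without TAC 1, sham 1 or sham 2. Under total counts no gene of these 2 lists was called by edgeR: Ctsl was at 0.20 (adjusted p 0.336), Prmt1 at 0.29 (0.235) and Ppp2ca at 0.16 (0.452). The list's median was -0.03, and Akt1, the kinase that keeps FoxO out of the nucleus, was at 130 and 113 CPM in sham and 155 and 133 in TAC (0.24, adjusted p 0.181).

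Of 20 SCF partners and other muscle ligases, Fbxo40 and Fbxl22 rose, where 2.58% of all genes were called higher. Fbxo40, a muscle F-box protein that targets Irs1, was at 326 and 307 CPM in sham and at 489 and 466 in TAC (log2 fold change 0.59, edgeR adjusted p 0.0104). It kept its call with any library left out but not under total counts (0.0845). Fbxl22, an F-box protein of the sarcomere, had a value of 0.48 (adjusted p 0.0289) and lost its call without TAC 1 or sham 1, and under total counts (0.29, adjusted p 0.212). The core subunits Skp1, Cul1 and Rbx1 had values of 0.14, 0.05 and 0.08 and were not called. The median of the list was 0.01. In the NEDD4 family (9 of 10 tested) Smurf2, a ligase of TGF-beta signalling, rose by 0.38 on the log2 scale (adjusted p 0.0449) and Nedd4l fell. Neither was called with sham 1, sham 2 or TAC 1 left out, and under total counts Nedd4l was called (-0.65, adjusted p 0.0349) and Smurf2 was not (0.19, 0.42). The family's median was -0.04, and over all genes 5.01% were called. In the p53 list (12 of 13 tested) Cdkn1a was the called gene, the same gene as in the list of FoxO targets, and the median was 0.05.

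Of the 12 chaperone partners of Stub1, 4 rose and 1 fell, where 2.58% of all genes were called higher and 2.43% lower. The median log2 fold change of the list was 0.22. Hspa8, the constitutive Hsp70, went from 983 and 916 CPM in sham to 1456 and 1337 in TAC (log2 fold change 0.56, edgeR adjusted p 0.0202). The cochaperone Bag3, which with Stub1 passes clients to autophagy, went from 217 and 216 CPM to 335 and 302 (0.56, adjusted p 0.0149). Hsp90aa1 (0.46, adjusted p 0.0243) and Bag2, which inhibits CHIP (0.49, adjusted p 0.0366), also rose. The stress-induced Dnajb1 fell by 0.91 on the log2 scale (adjusted p 0.0455). It lost its call without sham 1, TAC 1 or TAC 2, and immediate early genes, which rise during cell isolation, moved the same way: 9 of 10 were called lower, with a summed level of 1015 and 596 CPM in sham and 222 and 224 in TAC. Their part in this value was not tested. Bag3 and Hspa8 kept their calls with any library left out, while Bag2 lost its call without sham 1 or TAC 1. Under total counts none of the 4 higher genes was called, with log2 fold changes of 0.36 for Hspa8 (adjusted p 0.107), 0.36 for Bag3 (0.0924), 0.28 for Hsp90aa1 (0.252) and 0.30 for Bag2 (0.18), and Dnajb1 was (-1.11, 0.0261).

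The genes of the list of E1 and E2 enzymes and deubiquitinases lay mostly above 0, 18 of 19 of them, with a median log2 fold change of 0.16, against the 49.1% of all genes above 0. The E2 enzyme Ube2g1 rose, from 64.4 and 69.4 CPM in sham to 96.2 and 84.5 in TAC (0.43, edgeR adjusted p 0.0422), and was not called without TAC 1 or sham 1, nor under total counts. Of 15 reported substrates Myh7, the slow myosin of the failing rodent heart, rose from 73.2 and 52.7 CPM to 1481 and 698 (4.11, adjusted p 0.00445), and Tcap, a Z-disc cap of titin, fell from 722 and 952 to 435 and 455 (-0.91, adjusted p 0.0148). Reads of Myh7 can be shared with the similar Myh6. The median of the substrates was 0.11, and over all genes 5.01% were called. Of 14 other atrophy regulators 12 were tested and none was called by edgeR, with 6 at an unadjusted p under 0.05 (2 higher and 4 lower, where 27.5% of all genes reached it) and 2 called by DESeq2. Other settings of edgeR called 1 under total counts, 3 without the filter on low counts, 2 without sham 1, 1 without sham 2 and 3 without TAC 2. Values lay below 0 for 10 of the 12, where 49.1% of all genes lay above 0, and the median of the 12 was -0.33. The lower ones included the activin receptor Acvr2b (-1.24, edgeR adjusted p 0.145), the metallothionein Mt2 (-0.75, 0.0982), the TNF receptor Tnfrsf1a (-0.51, 0.129) and Smad3 (-0.42, 0.174). The markers of non-muscle heart cells given above also lay below 0, and the part of such cells in these values was not tested. Of the 2 genes with values above 0, Ppargc1a, a regulator of mitochondria that restrains FoxO3, was at 75.6 and 84.0 CPM in sham and 113 and 97.9 in TAC (0.40, adjusted p 0.0553), and the activin receptor Acvr2a had a value of 0.31 (adjusted p 0.0865). Myostatin (Mstn) and its antagonist Fst had too few counts to test.

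**Figure D5:**
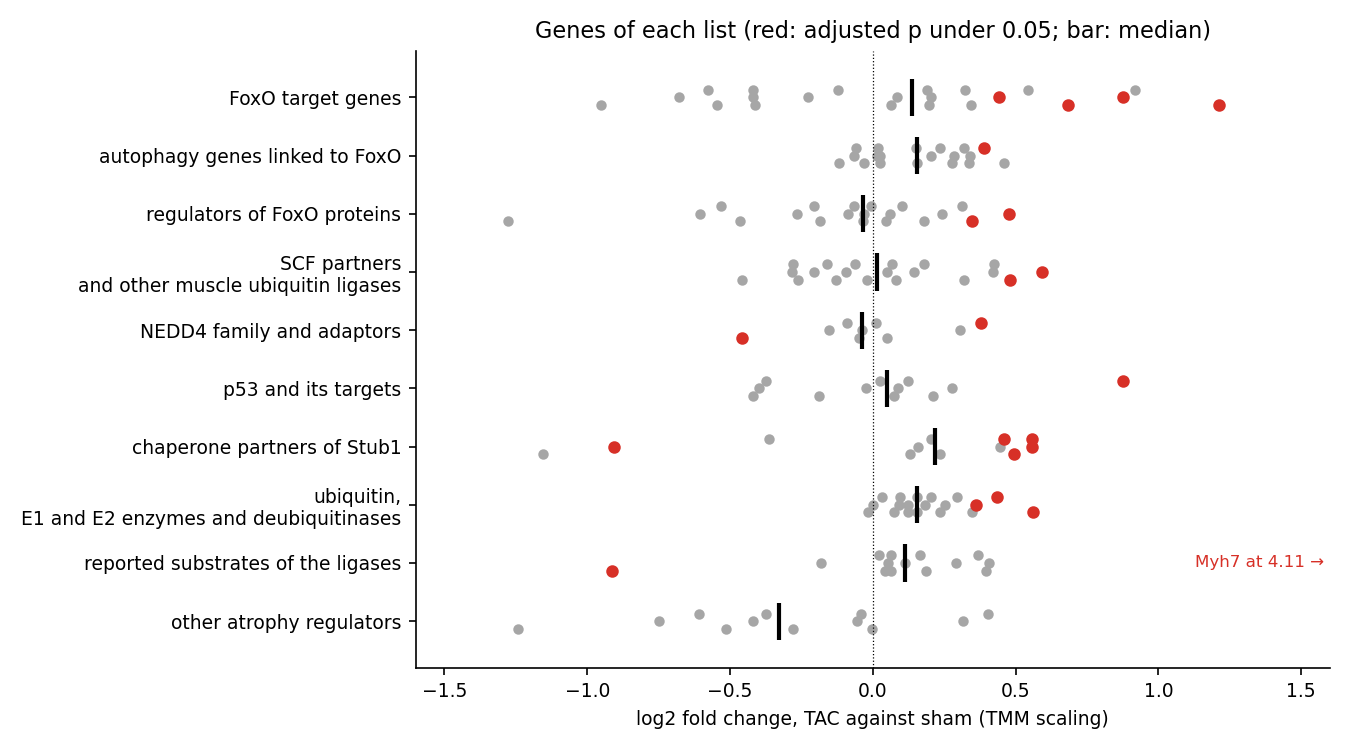
Log2 fold change, TAC against sham under TMM scaling, of each tested gene in the 10 lists around the members; red points were called by edgeR at an adjusted p under 0.05, grey points were not, and black bars are list medians. Myh7, at 4.11, lies beyond the axis, and 18 of the 21 called genes lie to the right of 0.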

How the data were processed

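RNA sequencing was done by the authors on cardiomyocytes of 2 sham and 2 TAC mice, and groups came from the sample titles. The submitters' processing notes name mm10, Bowtie2 2.2.8 and StringTie 1.3.1, without their roles; how reads were counted, with which annotation and whether by strand, is not stated in any source used here. Per library, the authors deposited an expected count per gene, which need not be whole, and an FPKM (scaled by length and library size). Rows without a symbol numbered 16 and were kept.

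Expected counts were rounded and tested in R 4.3.3 with edgeR 4.0.16 (filterByExpr, TMM factors of 0.868 to 1.097, glmQLFit and glmQLFTest without a block, Benjamini-Hochberg over 12499 genes, adjusted p under 0.05). CPM used TMM-scaled library sizes. The standard error was the log2 fold change divided by the square root of F. Alternatives used DESeq2 1.42.0, and limma 3.58.1 on log2(FPKM + 0.1) and log2(FPKM + 1). No library was a copy of another (chi-square per degree of freedom 9.19 between the sham and 31.3 between the TAC libraries); p-values measure the spread between hearts, with n = 2. The script was tested on simulated data. Gene positions came from GENCODE M21.

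Members and lists were chosen with earlier results of these data known. All members were named; of each list, called genes were named, up to 4 per direction by adjusted p, and where fewer than 2 were called the 2 with the lowest adjusted p. Akt1, Pdk4, Klf2, Skp1, Cul1, Rbx1, Acvr2b, Mt2, Tnfrsf1a and Smad3 were added after their values were seen. So were Foxo6, Sesn1, Insr, Bcl2l11, Ccng2, Gadd45a, Cited2 and Cdkn1b. Some called genes of the lists are counted but not reported here by name.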

Additional observations from a re-analysis of the deposited data

How the results depend on the processing

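The number of genes called was 626, and it was 1676 without a filter on low counts, 237 on log2(FPKM + 0.1), 270 on log2(FPKM + 1), and 301 to 1336 when a library was left out. Of the members 0 were called, and 2 were by DESeq2 and 2 without the filter, Trim63 and Trim54 in both, with 0 to 2 when a library was left out (10.3% of all genes were called without TAC 2, 10.5% without the filter). Of the list genes 21 were called, and 9 were under total counts, 37 by DESeq2, 51 without the filter, 5 on log2(FPKM + 0.1), 6 on log2(FPKM + 1) and 9 to 38 when a library was left out. Among all genes, 322 were called higher and 304 lower, against 105 and 423 under total counts. The cause of these shifts was not tested, apart from the fewer libraries or genes of some.

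The study's methods speak of pairs of sham and TAC mice, without saying whether the replicate numbers mark them. Deviations of same-numbered libraries correlated at -0.24. With the number as a block 566 genes, 0 members and 17 list genes were called, 15 of them among the 21; the named genes that lost their call were Nedd4l (adjusted p 0.0629), Smurf2 (0.0768), Ppp2ca (0.0727), Ube2g1 (0.0508) and Eif4ebp1 (0.068). A block with crossed numbers, chosen after seeing the data, called 2131 genes, 2 members and 55 list genes. Trim63 and Trim54 kept a positive value in all 13 alternatives (0.29 to 0.67 and 0.12 to 0.40), as did Trim55 and Stub1, and Nedd4 kept a negative one. Fbxo32, Foxo1, Foxo3 and Foxo4 changed sign when a single library was left out, and Mdm2 under total counts and on FPKM. With 2 hearts per group the intervals given above limit what can be said of smaller changes.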

Other observations

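Families of ubiquitin ligase subunits and related enzymes were read by the start of their symbols, genes of the lists included, a choice made after their values were seen. The kelch-like (Klhl) genes, adaptors of Cul3 ligases, had 5 called genes among 33 tested (15.2%), the highest share of the 7 families read, where 5.01% of all genes were called by edgeR. The families of the members and their partners lay near or under that background, with 1 of 42 TRIM genes (2.38%), 2 of 49 F-box genes (4.08%) and 2 of 33 E2 genes (6.06%) called. Klhl34 rose, from 5.78 and 4.66 CPM in sham to 14.7 and 14.2 in TAC (log2 fold change 1.46, edgeR adjusted p 0.00492), and so did Klhl31, a muscle protein, from 104 and 103 to 156 and 155 (0.58, adjusted p 0.0078). Klhl33 fell from 19.6 and 25.4 CPM to 9.22 and 10.4 (-1.20, adjusted p 0.00948), Klhl13 fell by 0.69 on the log2 scale (0.0251) and Klhl5 by 0.84 (0.043). Klhl34, Klhl31 and Klhl33 kept their calls with any library left out, while Klhl13 lost its call without TAC 1 and Klhl5 without TAC 1 or sham 1. Under total counts Klhl31 was not called (adjusted p 0.0924). None of the 16 Asb genes tested, adaptors of Cul5 ligases, was called by edgeR.

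Of 66 Rnf genes 3 (4.55%) were called, a share near that of all genes, Rnf115 higher (21.1 and 23.6 CPM in sham, 36.5 and 37.9 in TAC, 0.74, edgeR adjusted p 0.0104) and Rnf150 and Rnf213 lower (-0.66 and -0.54). Rnf115 was not called under total counts (adjusted p 0.0564), Rnf150 not without sham 2 (0.0522) and Rnf213 not without TAC 1 (0.122) or sham 1 (0.109). Of 45 deubiquitinases of the Usp family 1 was called: Usp28 was at 133 and 141 CPM in sham and 217 and 212 in TAC (0.65, edgeR adjusted p 0.00641), and kept its call with any library left out but not under total counts (0.0565).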
